A study of Mus musculus with 6 samples.

Results

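The NKG2 and related lectin receptors described here are 8 genes, Klrc1, Klrc2, Klrd1, Klrk1, Klre1, Klrb1c, Klrg1 and Klri2, out of 31053 genes counted in mouse spleen cells. They were chosen by symbol among the gene features, and all 8 were found. RNA and surface protein were counted in the same splenocytes by CITE-seq, in which DNA-tagged antibodies and RNA are read from each cell together. The labels give 3 groups of male C57BL/6 mice: aged mice (20 months) given recombinant mouse platelet factor 4 (PF4, 5 μg/mL), aged mice (20 months) given saline and young mice (3 months) given saline. Each mouse received 100 μL by tail vein 8 times over 24 days, and the cells of 5 mice were pooled for each group, so that a group is 1 RNA library and 1 antibody library. No source used here ties the barcode suffix (1, 2 or 3) that separates the libraries to a group. The libraries are therefore named 1, 2 and 3 by that suffix alone, and neither age nor PF4 treatment was compared. With 1 library per group and no replicate, no test was made, and all intervals are exact 95% intervals (Poisson for CPM, binomial for shares) that cover counting error only.

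After the study's limits of 300 to 5000 genes and at most 10% mitochondrial UMIs (unique molecular identifiers, which count captured molecules), 20161 of 29005 barcodes were kept, with 4199, 7511 and 8451 cells in libraries 1, 2 and 3 and median depths of 3625 to 3765 UMIs per cell. Among kept cells, 43 barcode sequences occurred under more than 1 suffix. Cells were clustered without any Klr gene, so the members took no part in the classes they are read in. NK-like cells (361 cells, with 56, 89 and 216 in libraries 1, 2 and 3) carried all 7 of their markers, with Ncr1 at 882.6 CPM (counts per 1000000 RNA UMIs of the same cells), Tyrobp at 2837 CPM and Gzma at 7009 CPM, against 24.2 CPM of the T cell gene Cd3e, 73.9 CPM of Cd3d (213.9, 50.9 and 43.1 CPM by library) and 74.6 CPM of Trdc. B cell RNA was also counted in them, with 73.9 CPM of Cd79a. The remaining classes used below were memory CD8-like (1015 cells), naive CD8-like (1098), Gzmk effector memory-like (351), NKT-like (157) and regulatory T-like T cells (519), with B-like cells (10916) as the largest class.

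These receptors are C-type lectin-like proteins of the natural killer gene complex that let NK cells and some T cells read the surface of other cells. CD94, the product of Klrd1, pairs with the inhibitory NKG2A (Klrc1) or with the activating NKG2C (Klrc2), and both pairs bind the non-classical MHC molecule Qa-1, encoded by H2-T23. NKG2D, the product of Klrk1, is an activating receptor for stress-induced ligands of the Rae-1, H60 and MULT1 groups and signals through the adaptors encoded by Hcst and Tyrobp. In mice, Klre1 encodes a partner of the Klri1 and Klri2 products, with Klri2 forming the activating pair. Klrb1c encodes the NK-1.1 antigen of C57BL/6 mice, an activating receptor that signals through Fcer1g, and Klrg1 encodes an inhibitory receptor for cadherins.

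All 8 genes lie on mouse chromosome 6 (GRCm38, the assembly that mm10 names, in GENCODE release M21). The neighbours Klre1, Klrd1, Klrk1, Klrc2, Klrc1 and Klri2, in that order, span 162.6 kb, with Klre1 at chr6:129577905-129585827 and Klri2 at chr6:129729041-129740484. Klrd1 (chr6:129591782-129598775) is on the plus strand beside Klre1, and Klrk1 (chr6:129610323-129623864), Klrc2 (chr6:129647496-129660689) and Klrc1 (chr6:129666015-129678973) are on the minus strand. Klrb1c (chr6:128778485-128789215, minus strand) lies 788.7 kb from Klre1, and Klrg1 (chr6:122270596-122282882, minus strand) lies 6495.6 kb from Klrb1c. The assay counts the 3′ ends of transcripts, and the near-identical copies among these genes limit the counts. Of the windows of 90 bases within the last 500 bases of the transcripts, 21.9% of those of Klrc1 also occur in Klrc2, 6.36% of those of Klrc2 occur in Klrc1 or Klrc3, and 11.4% of those of Klrb1c occur in Klrb1a or the overlapping gene model Gm44511. Klrd1, Klrk1, Klre1, Klrg1 and Klri2 shared none. Counts of Klrc1, Klrc2 and Klrb1c may therefore be split between copies, and because UMIs were not divided by transcript length, levels are compared between cells and not between genes.

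The sequences before the start sites of Klrc1 and Klrk1 are shown because both genes were higher in the CD44 high than in the CD44 low CD8 T cells described further on. Each runs 5′ to 3′ on the strand of the gene over the 250 bases before the start site given by RefSeq (GRCm38.p6), at chr6:129678974-129679223 for Klrc1 and chr6:129623865-129624114 for Klrk1, both on the minus strand, with a match to the Runx motif TGTGGTT in capitals.
Klrc1: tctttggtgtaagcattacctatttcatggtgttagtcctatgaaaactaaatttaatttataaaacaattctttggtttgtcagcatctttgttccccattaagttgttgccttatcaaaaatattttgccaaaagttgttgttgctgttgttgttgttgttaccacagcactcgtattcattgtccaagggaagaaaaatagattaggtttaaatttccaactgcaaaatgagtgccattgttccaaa
Klrk1: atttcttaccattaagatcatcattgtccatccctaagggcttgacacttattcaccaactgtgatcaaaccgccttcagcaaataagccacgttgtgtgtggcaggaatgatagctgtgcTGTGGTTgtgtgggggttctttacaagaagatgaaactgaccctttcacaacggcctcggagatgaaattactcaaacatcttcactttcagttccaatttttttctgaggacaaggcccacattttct
Klrk1 holds TGTGGTT from position -129 counted from the start site, Klre1 holds it from position -229 in 1 of its 2 windows, and the windows of Klrc1, Klrc2 and Klrb1c hold it on neither strand. Of 32851 promoter windows of this length, 4.396% hold this motif on either strand and 3.33% hold the T-box motif GGTGTGA, which none of the windows of these 5 members holds. RefSeq entries were matched for 5 of the 8 members, namely Klrb1c, Klre1, Klrk1, Klrc2 and Klrc1. A match is a description of letters and not of a bound site.

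With libraries pooled, every member had its highest level in NK-like cells among the named classes of at least 50 cells (8 of 8 members, beside 8.23% of the 6334 genes that reached 50 CPM in one of these classes), and for each the interval of NK-like cells lay above that of the next class. Within single libraries the exception was Klrg1 in library 3, where 106.7 CPM (86.2 to 130.5) in NK-like cells stood below 131.5 CPM (67.96 to 229.7) in Gzmk effector memory-like cells, with overlapping intervals and only 12 UMIs from 18 cells in the second class. The 8 genes had 24962 UMIs over the kept cells, and NK-like cells, 1.79% of the cells, held 32.2% (31.7 to 32.8) of them. By library, that share was 25.5%, 20.0% and 46.8% in libraries 1, 2 and 3, while NK-like cells were 1.33%, 1.18% and 2.56% of cells. Unnamed clusters with NK cell genes, of 166 and 37 cells, lay outside the NK-like class and held 1126 and 875 of the members' UMIs. In library 3 they held 716 and 639 of 10381. The cluster of 37 cells also carried B cell genes. Memory CD8-like cells held 38.2%, 47.2% and 9.96% of the members' UMIs in libraries 1, 2 and 3, and were 5.48%, 8.33% and 1.88% of the cells. Where the members' RNA lay thus differed between libraries together with the number of cells of each class, which the level per class below does not contain.

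**Figure D1:**
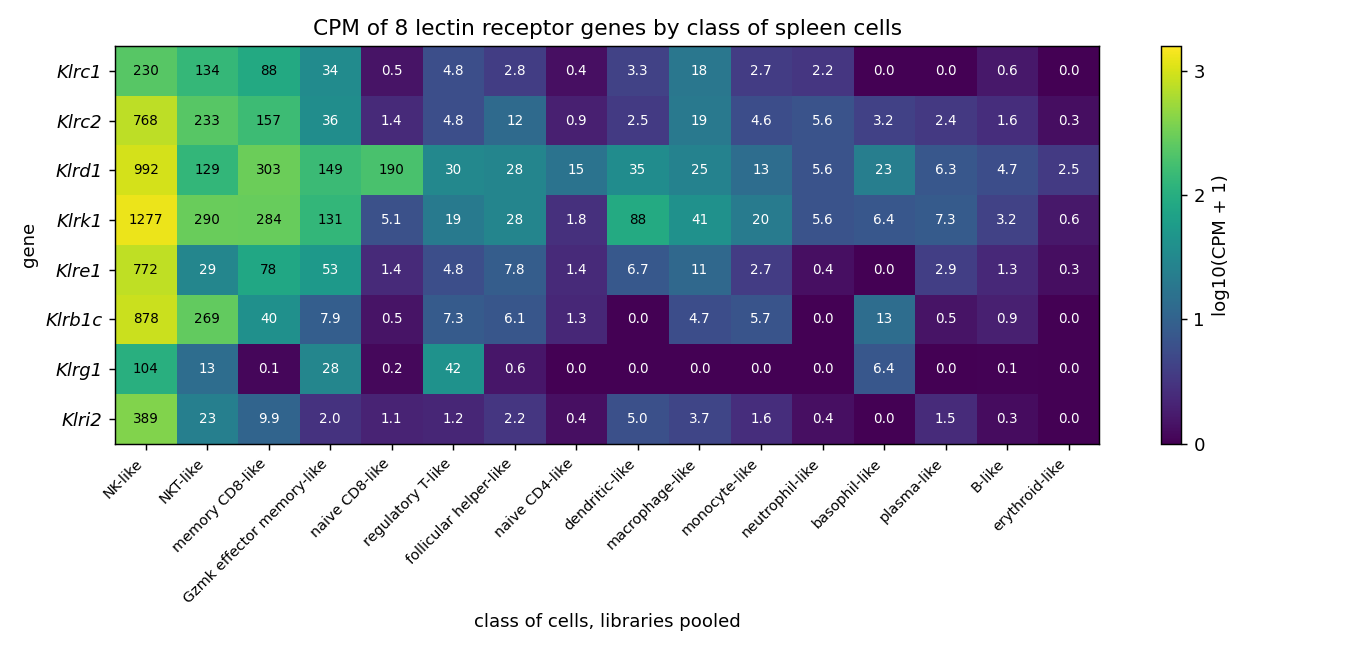
CPM of the 8 genes (down the page) in 16 classes of kept spleen cells (across), libraries pooled. Colour is log10(CPM + 1) and the printed number is the CPM. NK-like cells stand highest for every gene, and Klrd1 alone exceeds 100 CPM in naive CD8-like cells (189.9 CPM).

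B-like and erythroid-like cells, which should lack these receptors, served as the background. B-like cells had between 0.0545 CPM of Klrg1 and 4.72 CPM of Klrd1, and erythroid-like cells had at most 2.51 CPM, also of Klrd1. Of NK-like cells, at a median depth of 3857 UMIs, 92.5% had a UMI of Klrd1 and 97.5% one of Klrk1, against 1.47% and 0.879% of B-like cells, at a median depth of 3170.5 UMIs. With each cell thinned to 1000 UMIs, 65.4% of NK-like cells and 0.546% of B-like cells had a UMI of Klrd1, and 94.7% of NK-like cells but 0.0304% of B-like cells had UMIs of at least 2 of the 8 members. Levels of a few CPM in other classes are read below as background.

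In NK-like cells the highest library was less than 2 times the lowest for each member. Klrk1 was at 1244, 1480.5 and 1205 CPM in libraries 1, 2 and 3, and Klrd1 at 903.3, 1045 and 996.3 CPM. Klrc2 was at 744.8, 731.8 and 788.6 CPM and Klrc1 at 202.1, 197.8 and 250.8 CPM in the same order. For these 4 genes the highest library was between 1.08 and 1.27 times the lowest. Klre1 was at 626.0, 652.6 and 861.3 CPM, Klrb1c at 796.3, 864.5 and 906.7 CPM, and Klri2 at 344.7, 389.9 and 400.6 CPM. The intervals of libraries 2 and 3 did not overlap for Klrk1, and those of library 3 and of either other library did not overlap for Klre1. Klrg1 had the widest ratio, 1.71, with 130.7 CPM in library 1, 76.3 CPM in library 2 and 106.7 CPM in library 3. None of the 8 members reached a ratio of 2 between the highest and the lowest library, a ratio that 6.58% of the 3494 genes of at least 50 CPM in NK-like cells reached (1.26% with library 1 highest, 2.52% with library 2 and 2.8% with library 3).

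**Figure D2:**
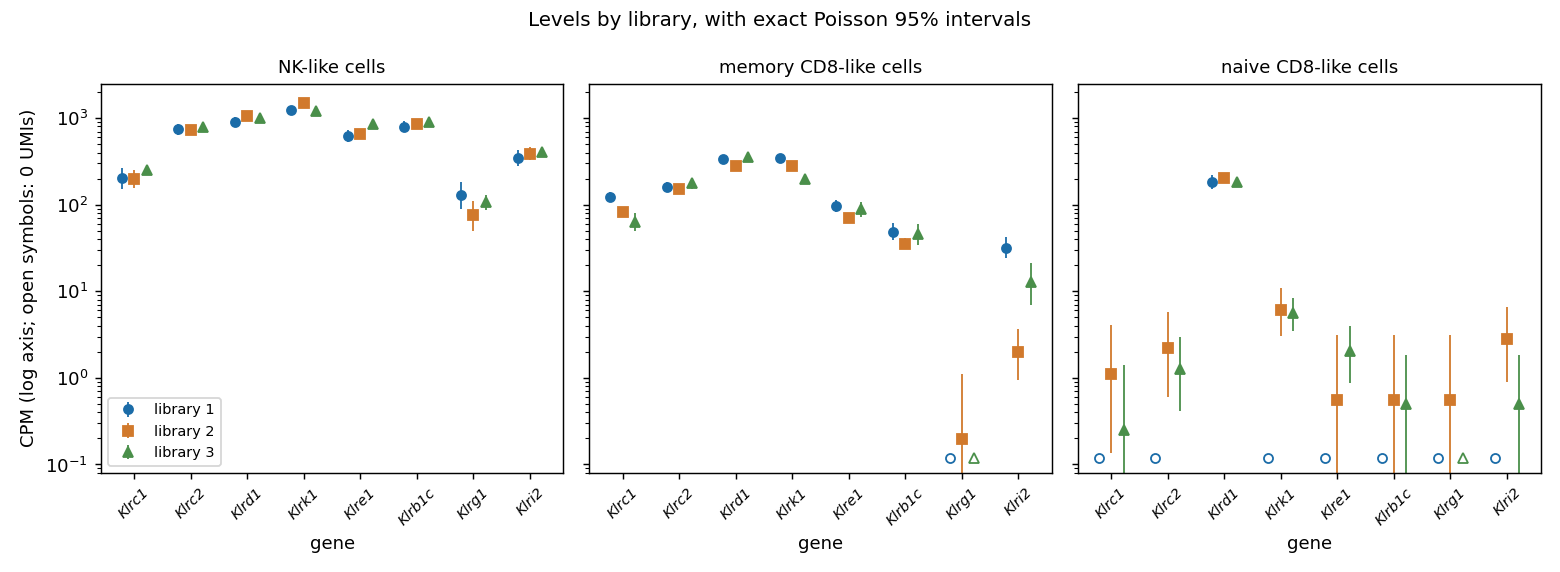
CPM of the 8 genes (log axis) in NK-like, memory CD8-like and naive CD8-like cells of libraries 1, 2 and 3, with exact Poisson 95% intervals and open symbols where no UMI was counted. In NK-like cells the highest library is at most 1.71 times the lowest, and in naive CD8-like cells Klrd1 stands at 184.1 to 204.5 CPM while the other members are at 6.15 CPM or less.

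The 361 NK-like cells came from 2 clusters, one of 299 cells led by Gzma and one of 62 cells led by Kit and Xcl1. In the Kit and Xcl1 cluster another list of markers scored higher than the NK-like list, at a mean log2 fold of 2.67 against 2.26. The name of that cluster is therefore less certain, and its cells are part of the NK-like values above and below. The pooled level of Klrk1 was 1218 CPM in the Kit and Xcl1 cluster and 1292 CPM in the Gzma cluster, and that of Klrc2 was 762.4 and 769.0 CPM. Klrc1 was higher in the Kit and Xcl1 cluster, at 333.3 CPM against 203.4 CPM. Klre1 was lower there, at 445.5 CPM against 855.1 CPM, and Klrg1 was at 6.6 CPM against 128.3 CPM. A further cluster of 166 cells of low UMI counts, which carried NK cell and haemoglobin genes and was left unnamed, had 1200.0 CPM of Klrk1, 821.6 CPM of Klrd1 and 745.2 CPM of Klrc2.

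NK cells were then ordered by 2 proteins of their maturation, CD27, which is lost, and CD11b, which is gained, as they mature. These antibody counts took no part in the clusters. NK-like cells comprised 81 CD11b- CD27+, 97 CD11b+ CD27+, 139 CD11b+ CD27- and 44 CD11b- CD27- cells, and CD11b+ CD27- cells were 30.4%, 23.6% and 46.8% of NK-like cells in libraries 1, 2 and 3. Each protein was split at a limit fitted over the pooled libraries, without adjustment for the antibody background of a library. The separation (Ashman's D, limit 2) was 2.427 for CD27 and only 2.007 for CD11b. The antibodies followed their own genes. Itgam, which encodes CD11b, was at 396.5 CPM in CD11b+ CD27- and 37.5 CPM in CD11b- CD27+ cells, and Cd27 was at 50.4 and 189.8 CPM.

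Klrg1 was the member that differed most along this order. CD11b+ CD27- cells had 348.1, 283.9 and 246.9 CPM of Klrg1 in libraries 1, 2 and 3, against 11.2, 7.54 and 11.2 CPM in CD11b- CD27+ cells, where only 4 UMIs were counted in all. The intervals of the 2 populations did not overlap in any library, and pooled levels were 265.1 CPM (220.0 to 316.7) and 9.99 CPM (2.72 to 25.6), a ratio of 26.5. CD11b+ CD27+ cells lay between, at 50.7 CPM (32.5 to 75.4). A Klrg1 UMI was seen in 43.2% of CD11b+ CD27- cells and 4.94% of CD11b- CD27+ cells, at median depths of 3247 and 5005 UMIs, and in 17.99% and 1.23% of them once thinned to 1000 UMIs. The thinned levels were 230.2 CPM in CD11b+ CD27- and 12.3 CPM in CD11b- CD27+ cells, the second from 1 of 81 cells. Klrg1 was 1 of 8 members at or over 2 times higher in CD11b+ CD27- cells, beside 5.49% of the 3986 genes of at least 50 CPM in either population, and none of the 8 was at or under 1/2, beside 3.24%. The stages draw on both NK-like clusters. Xcl1 was at 157.7 CPM in CD11b+ CD27- and 721.6 CPM in CD11b- CD27+ cells, with a ratio of 0.94 in library 1. The part of the Kit and Xcl1 cluster in the Klrg1 ratio was not tested.

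The other 7 members had pooled ratios of CD11b+ CD27- over CD11b- CD27+ cells between 0.79 for Klri2 and 1.58 for Klre1. Klre1 was at 870.2, 627.5 and 993.8 CPM in CD11b+ CD27- cells of libraries 1, 2 and 3, against 525.4, 648.8 and 571.5 CPM in CD11b- CD27+ cells, so that library 2 did not share the direction of the others. Klrd1 was at 1163 CPM (1066 to 1267) in CD11b+ CD27- and 888.9 CPM (798.9 to 986.2) in CD11b- CD27+ cells, with the opposite direction in library 1, and Klrb1c at 1001 and 774.0 CPM, also with the opposite direction in library 1. Klrc1, the inhibitory partner of CD94, was at 243.2 CPM in CD11b+ CD27- and 254.7 CPM in CD11b- CD27+ cells, and Klrc2, the activating partner, at 786.5 and 739.1 CPM. Of the 8 transcription factors listed, 7 reached 50 CPM in either stage, and 2 were at or over 2 times higher and 1 at or under 1/2 in CD11b+ CD27- cells. Eomes and Tbx21 had ratios of 1.202 and 1.49. Of the 6 cytotoxic genes, 4 reached 50 CPM, and 3 were at or over 2 times higher and none at or under 1/2. Gzma, a granzyme, was at 12886 CPM in CD11b+ CD27- and 1628 CPM in CD11b- CD27+ cells, Zeb2, a transcription factor of NK cell maturation, at 1172 and 124.8 CPM, and Tcf7, a transcription factor of early NK and naive T cells, at 54.8 and 322.1 CPM.

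**Figure D3:**
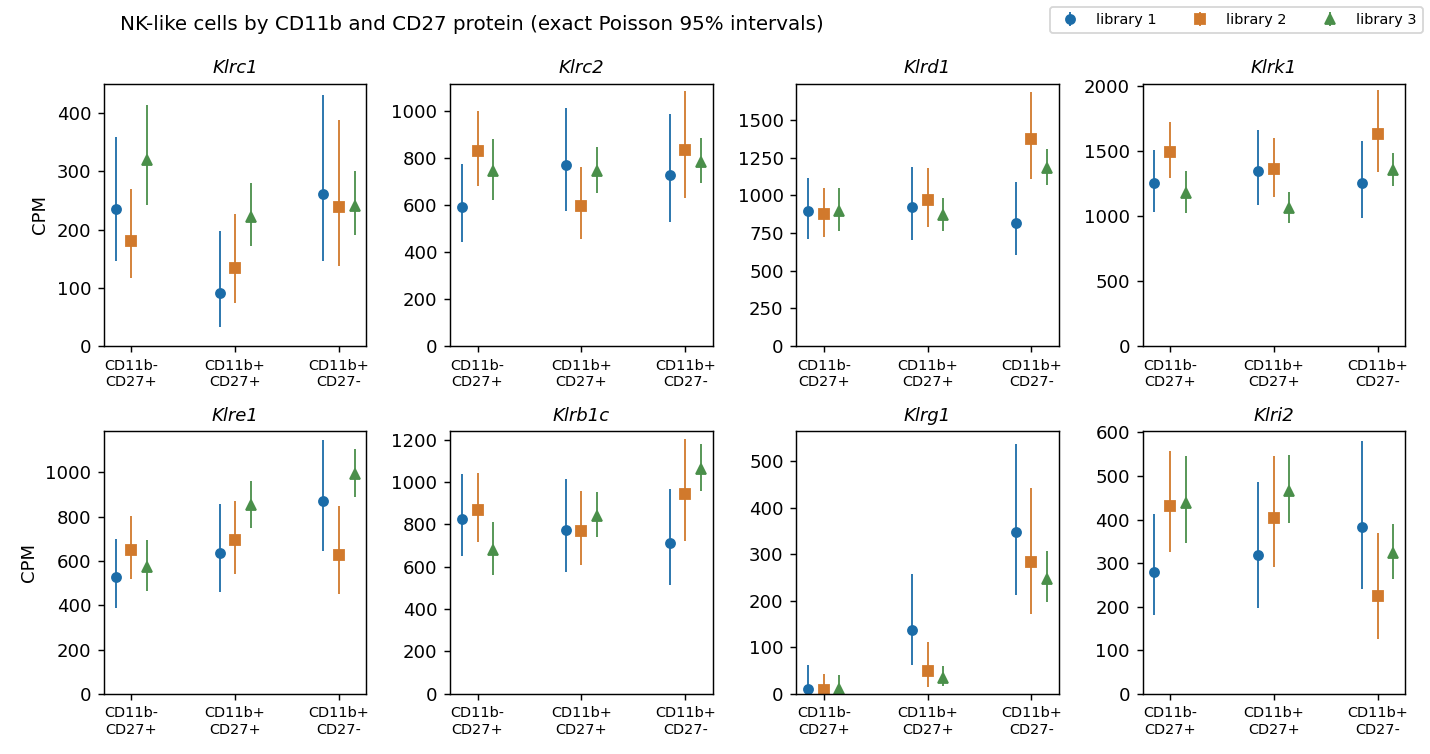
CPM of the 8 genes in NK-like cells, by stage of CD11b and CD27 protein from CD11b- CD27+ to CD11b+ CD27-, with a point for each library and exact Poisson 95% intervals. Klrg1 climbs to between 246.9 and 348.1 CPM in CD11b+ CD27- cells and is at or under 11.2 CPM in CD11b- CD27+ cells, while the other genes have pooled ratios of the last over the first stage between 0.79 and 1.58.

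In CD8 T cells the members depended on the state of the cell. Memory CD8-like cells were at 334.0, 280.8 and 358.9 CPM of Klrd1, and at 341.8, 283.2 and 196.8 CPM of Klrk1, in libraries 1, 2 and 3. They had 161.6, 151.6 and 175.8 CPM of Klrc2 and 122.99, 81.5 and 63.8 CPM of Klrc1. The intervals of Klrk1 did not overlap between any pair of libraries, with library 3 lowest, and those of Klrc1 did not overlap between library 1 and either of the others. Genes of T cell lineages also differed between libraries in this class. The gamma delta T cell gene Trdc was at 31.4, 12.3 and 170.3 CPM, and the CD8 gene Cd8b1 at 880.8, 919.3 and 548.4 CPM, in memory CD8-like cells of libraries 1, 2 and 3, and their part in the differences between libraries was not tested. Klre1 was at 95.9, 70.6 and 88.4 CPM and Klrb1c at 48.8, 35.4 and 45.5 CPM in this class. Klri2 was at 32.0, 1.99 and 12.8 CPM, from 53, 10 and 14 UMIs, and its intervals did not overlap between any pair of libraries. Klrg1 had 1 UMI in all 1015 cells. None of the 5 members of at least 50 CPM reached a ratio of 2 between libraries in memory CD8-like cells, beside 1.45% of 2696 genes. One of the 2 clusters of this class, led by Gm15228 and Gzmm, held 284 of its 313 cells in library 2. Its level of Klrd1 was 265.3 CPM (247.0 to 284.6), below the 326.1 CPM (310.2 to 342.5) of the other cluster of the class, and its level of Klrk1 was 277.6 CPM, against 287.1 CPM, with overlapping intervals.

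Naive CD8-like cells had Klrd1 without its partners. Klrd1 was at 184.1, 204.5 and 184.3 CPM in libraries 1, 2 and 3, and 59.3% of these cells had a UMI of it (18.3% after thinning). Klrc1 was at 0.467 CPM, Klrc2 at 1.4 CPM and Klrk1 at 5.14 CPM in the same cells, near the 0.627, 1.64 and 3.22 CPM of B-like cells. After thinning, 22.1% of memory CD8-like cells had UMIs of at least 2 members, against 0.274% of naive CD8-like cells. Gzmk effector memory-like cells had 131.4, 182.5 and 153.4 CPM of Klrd1 and 89.4, 172.4 and 328.8 CPM of Klrk1 in libraries 1, 2 and 3, the last from only 18 cells. Their Klrg1 level was 14, 36.5 and 131.5 CPM from 13, 18 and 12 UMIs. This class had 205 cells in library 1 and 128 in library 2.

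The split of CD8 T cells by surface protein used no RNA. Cells positive for CD8a and negative for CD4 and I-A/I-E, among the antibodies of the gate, were divided by CD44, an adhesion receptor that is high on antigen-experienced T cells, into 340, 637 and 217 CD44 high cells and 141, 333 and 647 CD44 low cells in libraries 1, 2 and 3. Klrk1 was at 276.3, 259.5 and 92.1 CPM in CD44 high cells, against 2.71, 11.7 and 5.33 CPM in CD44 low cells. Klrc2 was at 112.7, 131.6 and 61.6 CPM in CD44 high cells, against 0, 2.78 and 1.96 CPM in CD44 low cells. Klrc1 was at 96.2, 71.9 and 20.3 CPM in CD44 high cells, against 1.35, 3.34 and 0.281 CPM in CD44 low cells. Each of these genes was higher in CD44 high cells in every library, with no overlap of intervals between the gates. Klre1 was at 69.8, 62.9 and 45.7 CPM in CD44 high cells, against 0, 5.00 and 1.68 CPM in CD44 low cells. With CD44 low counts under 3 UMIs set to 3 in a library, the lowest ratio of CD44 high over CD44 low among the 3 libraries was 17.3 for Klrk1, 21.6 for Klrc1, 27.7 for Klrc2 and 12.6 for Klre1.

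These 4 members were at or over 2 times higher in CD44 high cells in every library, of the 5 members that reached 50 CPM in either gate. Of all 3020 genes of at least 50 CPM in either gate, 1.66% did so, and 0.298% were at or under 1/2 in every library. The fifth member, Klrd1, was at 285.7, 267.2 and 248.4 CPM in CD44 high cells, against 169.3, 205.7 and 189.1 CPM in CD44 low cells, with ratios of 1.69, 1.30 and 1.31. Klrb1c was under 50 CPM in both gates, at 30.6, 28.1 and 15.2 CPM in CD44 high cells and 0, 1.11 and 1.12 CPM in CD44 low cells. Klri2 and Klrg1 were at 8.19 and 4.04 CPM in CD44 high cells and at 0.82 and 0.82 CPM in CD44 low cells, libraries pooled. After thinning, 16.9% of CD44 high cells and 0.359% of CD44 low cells had UMIs of at least 2 members.

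**Figure D4:**
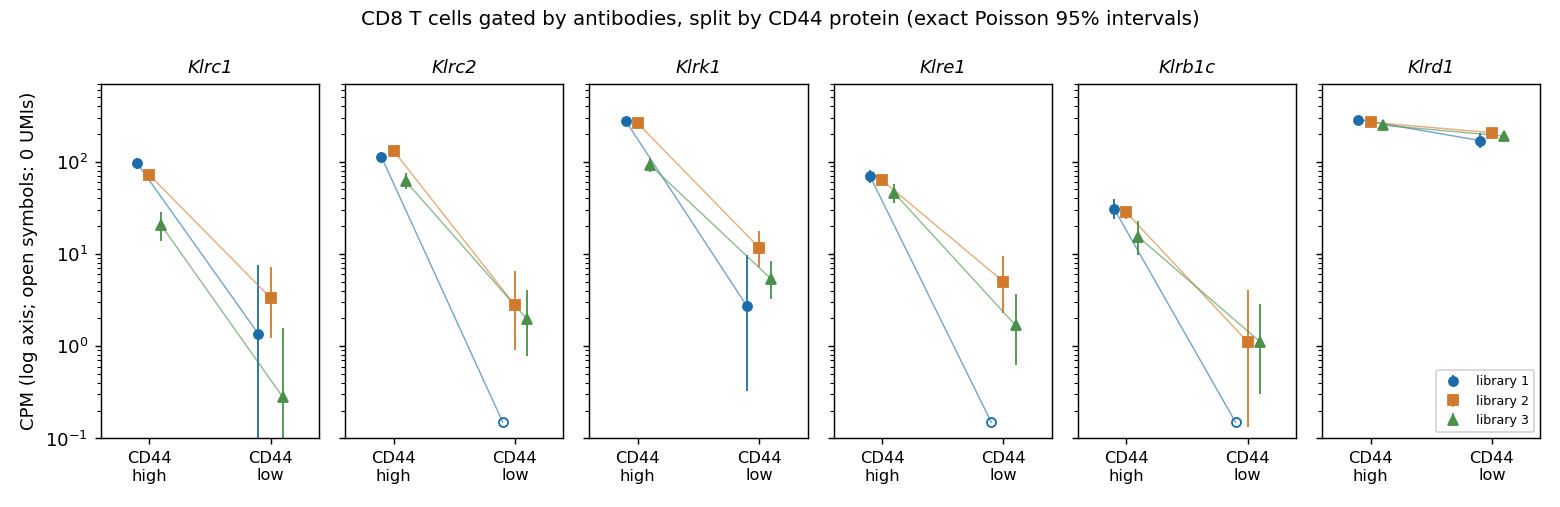
CPM (log axis) of 6 members in CD8 T cells gated by antibodies, CD44 high on the left and CD44 low on the right of each panel, with a line for each library, exact Poisson 95% intervals and open symbols where no UMI was counted. Klrc1, Klrc2, Klrk1, Klre1 and Klrb1c are higher in CD44 high cells in every library, and Klrd1 is at 169.3 CPM or more on both sides.

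Within the CD44 high gate the library 3 level was the lowest for Klrk1, Klrc1, Klrc2 and Klre1. The make-up of the gate moved with it. Memory CD8-like cells were 39.2% of CD44 high cells in library 3, against 56.5% in library 1 and 82.9% in library 2, and naive CD8-like cells were 35.0% of them in library 3, against 3.53% and 1.73%. Among the memory CD8-like cells of the gate alone, Klrk1 was at 329.2, 269.1 and 127.4 CPM and Klrc1 at 116.9, 77.8 and 34.1 CPM in libraries 1, 2 and 3. NK-like cells were 2 of the 217 CD44 high cells of library 3 and none of those of libraries 1 and 2. The CD44 limit was fitted in each library, and the lowest count called high was 65, 98 and 63 in libraries 1, 2 and 3. The part of the make-up and of this limit in the lower levels of library 3 was not tested.

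The balance of the inhibitory and the activating partner of CD94 differed between NK-like and memory CD8-like cells over pooled libraries and in libraries 1 and 2, but not beyond the intervals in library 3. Klrc1 gave 23.05% (20.9 to 25.3) of the summed Klrc1 and Klrc2 UMIs in NK-like cells, with 21.3%, 21.3% and 24.1% in libraries 1, 2 and 3. In memory CD8-like cells its share was 35.9% (33.7 to 38.1), above that of NK-like cells, with 43.2%, 35.0% and 26.6% by library. In library 3 the interval of memory CD8-like cells (21.4 to 32.4) overlapped that of NK-like cells (21.4 to 27.03). In the CD44 high gate it was 46.0%, 35.3% and 24.8% in libraries 1, 2 and 3. The shares of libraries 1 and 3 did not overlap within their intervals in either selection of CD8 T cells, whereas in NK-like cells the 3 intervals overlapped. NKT-like cells had 25%, 32.9% and 47.1%, the opposite order, from 17, 28 and 48 UMIs of Klrc1. Since the 2 genes share sequence near their 3′ ends, the shares compare cells and do not measure the ratio of the proteins.

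**Figure D5:**
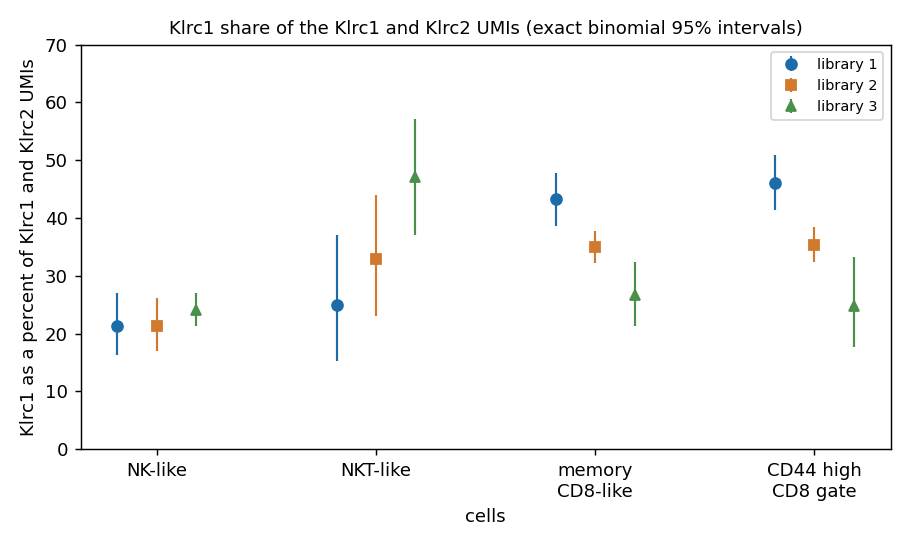
Klrc1 as a percent of the summed Klrc1 and Klrc2 UMIs in NK-like, NKT-like and memory CD8-like cells and in the CD44 high CD8 gate, for each library, with exact binomial 95% intervals. NK-like cells sit between 21.3% and 24.1%, and memory CD8-like cells between 26.6% and 43.2%.

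NKT-like cells, T cells with NK receptors, ranked next after NK-like cells over pooled libraries for Klrc1, Klrc2, Klrb1c and Klri2, with levels of 133.7, 233.0, 268.9 and 23.01 CPM. That rank did not hold in every library. For Klrc1, memory CD8-like cells were higher in library 1 (122.99 against 91.5 CPM), with overlapping intervals. For Klri2, NKT-like cells were at 53.8, 19.2 and 6.65 CPM in libraries 1, 2 and 3, from 10, 4 and 2 UMIs, and memory CD8-like cells were higher in library 3 (12.8 CPM). For Klrk1 they ranked next at 290.5 CPM (251.8 to 333.4), a level that did not differ from that of memory CD8-like cells, 283.5 CPM (271.8 to 295.6), beyond the counting error, and in library 3 Gzmk effector memory-like cells were higher (328.8 CPM from 30 UMIs). For Klrd1 and Klre1 memory CD8-like cells ranked next, at 303.2 and 78.5 CPM. For Klre1, Gzmk effector memory-like cells were higher in libraries 2 and 3 (103.4 and 98.6 CPM), with intervals that overlapped those of memory CD8-like cells. The levels of Klrd1 in Gzmk effector memory-like (149.4 CPM) and NKT-like cells (129.4 CPM) did not differ beyond their intervals. For Klrg1 the next class over pooled libraries was regulatory T-like cells, with 45.9, 34.2 and 48.4 CPM in libraries 1, 2 and 3, against 14, 36.5 and 131.5 CPM in Gzmk effector memory-like cells. The order of these classes thus held in library 1 and not in libraries 2 and 3, and their pooled intervals overlapped. The regulatory T-like cluster of high UMI counts had 43.4 CPM of Klrg1 with no UMI of Klrc1 or Klrc2 and 3.87 CPM of Klrk1.

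Outside lymphocytes, Klrk1 and Klrd1 were counted above the background of B-like cells in dendritic-like and related cells, and at lower levels in macrophage-like and monocyte-like cells. Macrophage-like cells had 41.0 CPM (29.8 to 55.1) of Klrk1, 25.2 CPM of Klrd1, 18.6 CPM of Klrc2 and 17.7 CPM of Klrc1, and monocyte-like cells had 20.4 CPM of Klrk1 and 12.8 CPM of Klrd1. The CD44 high CD8 gate held 1 macrophage-like cell, in library 1, with 584.1 CPM of Klrk1 and 700.9 CPM of Klrc1. Of macrophage-like cells, 7.63% (5.13 to 10.8) lay over the NK-1.1 limit described below, against 0.98% of B-like cells. The part of T and NK cell RNA in the macrophage-like levels was not tested. Klrk1 was at 112.2, 83.3 and 80.6 CPM in dendritic-like cells of libraries 1, 2 and 3, a class of 166 cells led by Apol7c, Ifi205 and Xcr1. Klrd1 was at 335.3, 355.4 and 324.7 CPM in a cluster of 213 cells led by Ccnd1, Cd209a and Flt3, which had dendritic and monocyte markers alike and was left unnamed. That cluster also had 143.2, 88.3 and 143.8 CPM of Klrk1 and 32.6, 35.3 and 32.7 CPM of Klri2, but only 2.05 CPM of Klrc1 and 6.84 CPM of Klrc2. Plasmacytoid-like cells, 40 in all, had 315.6 CPM of Klrd1 and 9.10 CPM of Klrk1.

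The NK-1.1 antibody could be set beside Klrb1c, the gene of its target. The median NK-1.1 count was 51, 42 and 43 in NK-like cells of libraries 1, 2 and 3, against 5, 5 and 7 in B-like cells, and 65.9% (60.8 to 70.8) of NK-like cells lay over the 99th percentile of B-like cells of their library. NKT-like cells, whose Klrb1c level was 268.9 CPM, had a median NK-1.1 count of 8, and 0.637% of them (0.0161 to 3.50) lay over that limit. The RNA was thus counted in this class with little of the antibody. Within NK-like cells, the 336 cells with a Klrb1c UMI had a median NK-1.1 count of 44 and the 25 cells without one had 28. By stage, RNA and antibody went in opposite directions over pooled libraries, but not in every library. CD11b+ CD27- cells had 1001 CPM of Klrb1c and a median NK-1.1 count of 39 (27.6 per 1000 antibody counts). CD11b- CD27+ cells had 774.0 CPM and a median of 50 (32.5 per 1000). In library 1 both were lower in CD11b+ CD27- cells, at 713.5 against 827.2 CPM and 31.4 against 34.5 per 1000. In library 2 the levels were 941.2 against 867.6 CPM and 27.5 against 27.9 per 1000. Library 3 had 1063 against 677.9 CPM and 26.9 against 35.8 per 1000. Among NK-like cells by library, library 1 had the lowest Klrb1c level (796.3 CPM) and the highest median NK-1.1 count. Memory CD8-like cells had 39.7 CPM of Klrb1c and a median NK-1.1 count of 6.

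Of the adaptors, Tyrobp and Fcer1g were far higher in NK-like than in memory CD8-like cells, and Hcst was not. Tyrobp and Fcer1g were among the markers that named the NK-like class, so their contrast was built into the classes. Hcst and Cd247 were not markers. Tyrobp was at 2837 CPM in NK-like and 22.7 CPM in memory CD8-like cells, and Fcer1g, the adaptor of NK-1.1, at 2407 and 39.8 CPM. Hcst, the adaptor of NKG2D, was counted in both, at 687.0 CPM in NK-like and 807.0 CPM in memory CD8-like cells, and Cd247 was at 108.2 and 97.5 CPM. None of the 4 adaptors had its highest level in NK-like cells, since Tyrobp reached 3435 CPM in neutrophil-like and Fcer1g 2762 CPM in monocyte-like cells. In the CD8 gates, Tyrobp was at 59.9, 46.8 and 179.2 CPM in CD44 high cells of libraries 1, 2 and 3, against 5.42, 9.45 and 13.5 CPM in CD44 low cells. It was the 1 of 3 adaptors of at least 50 CPM that was at or over 2 times higher in every library, beside 1.66% of all genes. The CD44 high gate also held 7 neutrophil-like, 5 monocyte-like and 2 NK-like cells, and their part in these Tyrobp levels was not tested. Among the ligands, H2-T23 was counted in every class, with 246.7 CPM in NK-like cells and 266.1 CPM in B-like cells. Raet1d had no UMI in NK-like cells and 1 in B-like cells, and Ulbp1, which encodes MULT1, was at 12.8 CPM in NK-like and 6.05 CPM in B-like cells. Cdh1, which encodes the Klrg1 ligand E-cadherin, was at 344.2 CPM in basophil-like cells, 127.5 CPM in plasmacytoid-like cells and at most 6.52 CPM in the other classes.

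Of 17 other killer lectin genes in the matrix, 10 reached 50 CPM in a class of at least 50 cells, and 9 of these were highest in NK-like cells, the exception being Klra2 at 187.7 CPM in monocyte-like cells. Klra4 and Klra8 of the Ly49 family were at 708.5 and 731.4 CPM in NK-like cells and at 0.771 and 7.19 CPM in memory CD8-like cells. Klrc3 was at 28.2 CPM and Klri1, the inhibitory partner of the Klre1 product, at 6.05 CPM in NK-like cells. Of 9 of these genes that reached 50 CPM in either NK stage, 2 were at or over 2 times higher in CD11b+ CD27- cells. Klra9 was at 624.4 CPM in CD11b+ CD27- and 167.3 CPM in CD11b- CD27+ cells, and Klra3 at 326.4 and 129.8 CPM. None of the 17 reached 50 CPM in either CD8 gate, and Klra7, the highest of them there, was at 37.4 CPM in CD44 high and 0.492 CPM in CD44 low cells. Of the 8 transcription factors listed, 4 reached 50 CPM in either CD8 gate, and 1 of these, Eomes, was at or over 2 times higher in CD44 high cells in every library, at 185.8, 202.1 and 102.9 CPM against 74.5, 45.03 and 17.4 CPM in CD44 low cells. Of the 6 cytotoxic genes, 4 reached 50 CPM, and Gzmm, a granzyme, was the 1 that did so, at 206.5, 253.7 and 44.5 CPM in CD44 high cells, against 4.06, 8.90 and 0.842 CPM in CD44 low cells. Eomes, a T-box factor of NK and memory CD8 T cells, was among the markers that named the NK-like and memory CD8-like classes. It was at 356.3 CPM in NK-like, 180.1 CPM in memory CD8-like and 21.01 CPM in naive CD8-like cells. Runx3, a factor of CD8 T and NK cells, was at 385.2, 306.0 and 290.6 CPM in the same classes.

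The likeness of each member to other genes was measured by Pearson's r of log2(CPM + 1) over 47 points, each a class in 1 library, among 6509 genes of at least 50 CPM in some class. The genes named next are the most like each member outside the 8 members. Klrc1, Klre1, Klri2 and Klrb1c each had a member that was closer than that gene. The points of a library share its depth and free RNA, so these values are a description. Xcl1, a chemokine of NK and CD8 T cells, was the gene most like Klrc1 (r = 0.90) and Klrc2 (r = 0.94). Ccl5 was the most like Klrk1 (r = 0.88), Ctsw the most like Klrd1 (r = 0.86) and Samd3 the most like Klre1 (r = 0.85). Xcl1 was among the markers that named the memory CD8-like and NKT-like classes, and Ccl5 among those of Gzmk effector memory-like cells. The likeness to Xcl1 and Ccl5 is therefore not free of how the classes were named. Klri2 was most like Klra9 (r = 0.82), Klrb1c most like Arl4d (r = 0.83) and Klrg1 most like Tnfrsf9 (r = 0.78). Among the members themselves, Klrc1 and Klrc2 were the closest pair (r = 0.93), Klre1 and Klri2 had r = 0.88, Klrb1c and Klrc2 had r = 0.84, and Klrd1 and Klrg1 the least alike (r = 0.40).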

How the data were processed

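Splenocytes of 3 pooled groups were measured as 3 RNA and 3 antibody libraries. The deposited counts are UMIs per gene (31053 genes) and per antibody (34 antibodies) in 1 aggregated matrix, made by the authors with Cell Ranger (version 5.0.1 in the matrix header) against mm10, and the submitters' processing notes also name Seurat. Here cells of 300 to 5000 genes and at most 10% mitochondrial UMIs were kept. Louvain clustering (Scanpy 1.11.5, igraph 0.11.9) used 2000 variable genes without Klr genes, 20 principal components and a resolution of 0.8 (1.0 among T and NK cells), and clusters were named from lists of markers. Doublets were left in apart from the gene limit, and Scrublet marked 504 kept cells (2.5%). Counts were summed by class and library and divided by all RNA UMIs (CPM). Antibody gates came from 2-component Gaussian mixtures at a posterior of 0.5, fitted in each library, or over pooled libraries for CD27 and CD11b in NK-like cells. One further antibody that the CD8 gate required to be negative is not reported here. TCR beta, whose mixture did not separate in library 1, was not used in the CD8 gate. The antibody gates of NK cells, tried as alternatives, did require it to be negative. Thinned values drew 1000 UMIs per cell. Ratios used a floor of 3 UMIs per library where a count was lower, and the Klrg1 ratio of pooled stages used none. Named genes are the 8 members, listed partner genes, and the genes most like each member. Members, lists and rules were chosen with earlier results of these data known. Scripts were tested on simulated data. The alternatives tried were other cell filters, doublet removal, clustering, gates, denominators and fold limits.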

Additional observations from a re-analysis of the deposited data

How the results depend on the processing

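Over the libraries pooled in each setting, all 8 members stayed highest in NK-like cells under the 10 alternatives tried, and the count higher in CD44 high CD8 T cells was 4, or 5 with a minimum of 10 CPM. The NK-like share of the members' UMIs, 32.2% as reported, was 30.5% with up to 20% mitochondrial UMIs, 34.1% without Scrublet cells, 36.9% with Klr genes in the clustering and 36.6% at resolution 1.2. Leaving out 1 library at a time gave 33.9% (without library 1), 40.0% (without library 2) and 21.8% (without library 3). The count of members past 2-fold between libraries in NK-like cells, 0 as reported, was 1 at a limit of 1.5 and 7 with NK cells taken from antibodies by mixture, a gate of 978 cells of which 308 were NK-like and for which NK-1.1 did not separate. It was 1 with an NK-1.1 limit at the 99th percentile of B-like cells, chosen after seeing the data. Both of these antibody gates also required TCR beta to be negative, which did not separate in library 1. The count of members higher in CD11b+ CD27- cells was 1, or 2 at a limit of 1.5. The cause of these differences was not tested. Leaving ribosomal, mitochondrial, immunoglobulin and haemoglobin genes (31.9% of UMIs) out of the denominator raised every level without changing those counts. The share of all genes past the same limits was counted for the reported settings only. The counts of members under other settings therefore cannot be set against such a share. No paired analysis was possible because each group is 1 library and no test was made. Small cell numbers limit the levels by stage and library.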
